A study of Mus musculus with 3 samples.

Results

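Among the sorted cells of the mouse larynx, a group of *Epcam*+ epithelial cells carried transcripts of *Akr1c14*, *Cyp26b1* and *Qrfp*. Cells were taken as members when at least 3 of 6 genes (*Akr1c14*, *Qrfp*, *Depp1*, *Cyp26b1*, *Tll1* and *Pdk4*) had at least 1 unique molecular identifier (UMI, 1 counted transcript molecule). Members also had at least 1 *Epcam* UMI, under 40 UMIs of *Krt5* and *Krt14* together per 10000, no *Sult1b1* UMI and fewer than 4 of the 5 genes *Orm1*, *Hbegf*, *Atf3*, *Fosl1* and *Gpnmb*. Barcodes with UMIs of all of *Krt5*, *Ltf*, *Scgb3a1* and *Dcn* were left out as mixtures. This gave 3463 members of 29050 *Epcam*+ cells within the quality limits, out of 60530 barcodes in all. The 6 genes had been chosen from an earlier grouping of these same cells, so the 18 genes that the rule reads were left out of the tests against other cells and are described. When members were split by *Lrig1* they stayed in the fit, and the 1 that passed is given as a description. A p-value of any other gene describes how steady a difference was over the libraries, and is not independent evidence that the group exists.

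All cells came from Lrig1CreERT2/+; ROSALSL-tdTomato/+ mice, in which tamoxifen activates a Cre recombinase driven from the *Lrig1* locus, and cells in which it acted turn on the red protein tdTomato. Cells sorted for tdTomato were collected 1 day after recombination, so every library belongs to the same condition and all comparisons are between groups of cells within it. A library was a pool of 10 larynges from 5 male and 5 female mice, and the 3 libraries are the replicates (n = 3 throughout). A pool cannot show how single mice differ, and tdTomato marks cells in which Cre acted, not cells that held *Lrig1* RNA when they were collected.

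The larynx is lined by a squamous epithelium over the vocal folds and by an airway epithelium elsewhere. In both, basal cells that express the transcription factor p63 (*Trp63*) lie below secretory, ciliated or flattened cells. The genes of the rule have unlike roles. *Akr1c14* encodes an aldo-keto reductase that reduces steroids, among them dihydrotestosterone and dihydroprogesterone, at the 3-keto position. *Cyp26b1* encodes a cytochrome P450 that breaks down retinoic acid, the vitamin A derivative that directs airway cells away from a squamous fate. *Qrfp* encodes the precursor of an RFamide neuropeptide that acts on a G protein-coupled receptor and is best known from the hypothalamus. *Pdk4* encodes a kinase that shuts the pyruvate dehydrogenase complex and so spares glucose, and *Depp1* a small protein induced by fasting and progesterone. Both are known targets of the FOXO factors, which act when insulin signalling is low, and of glucocorticoids. *Tll1* encodes a secreted tolloid protease that cleaves procollagens and the BMP antagonist chordin.

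The 250 bases before the start sites of 4 of these genes are shown because the genes were found together in the same cells, so that a reader can compare the regions just upstream. The sequences are from RefSeq, in mouse build GRCm38.p6, and are written 5′ to 3′ on the strand of the gene. Capitals mark a match to 1 of 6 short motifs searched on both strands: GTAAACA and GTAAATA (forkhead factors, FOXO among them), AGAACA (bound by the glucocorticoid receptor), AGGTCA (bound by retinoid and related receptors), CCAAT and TATAAA. The letters were widened after a first search found no match, and no 2 matches overlapped. *Akr1c14* is at chr13:4059341-4059590, plus strand, *Depp1* at chr6:116650434-116650683, plus strand, *Cyp26b1* at chr6:84593811-84594060, minus strand and *Pdk4* at chr6:5496279-5496528, minus strand.
Akr1c14: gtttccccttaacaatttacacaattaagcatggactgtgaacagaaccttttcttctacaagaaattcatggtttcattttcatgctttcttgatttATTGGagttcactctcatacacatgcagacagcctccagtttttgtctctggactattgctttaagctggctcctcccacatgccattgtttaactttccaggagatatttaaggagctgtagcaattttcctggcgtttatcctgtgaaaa
Depp1: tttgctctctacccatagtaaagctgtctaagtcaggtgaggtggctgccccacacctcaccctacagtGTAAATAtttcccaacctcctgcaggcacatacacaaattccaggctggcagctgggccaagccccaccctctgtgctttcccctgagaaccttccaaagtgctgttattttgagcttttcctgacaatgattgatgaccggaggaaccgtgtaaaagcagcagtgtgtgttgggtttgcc
Cyp26b1: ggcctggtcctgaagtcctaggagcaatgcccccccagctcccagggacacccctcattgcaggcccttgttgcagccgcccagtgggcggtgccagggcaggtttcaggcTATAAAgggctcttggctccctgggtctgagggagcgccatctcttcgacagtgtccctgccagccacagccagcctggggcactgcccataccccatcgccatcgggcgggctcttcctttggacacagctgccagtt
Pdk4: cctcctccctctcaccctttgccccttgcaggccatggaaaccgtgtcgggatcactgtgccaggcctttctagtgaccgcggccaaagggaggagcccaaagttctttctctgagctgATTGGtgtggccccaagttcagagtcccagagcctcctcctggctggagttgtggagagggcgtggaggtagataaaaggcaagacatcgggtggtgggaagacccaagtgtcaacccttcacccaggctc

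The capitals in *Akr1c14* and *Pdk4* are CCAAT read on the reverse strand, those in *Depp1* are GTAAATA and those in *Cyp26b1* TATAAA. Of the 6 rule genes, 3 (*Akr1c14*, *Tll1* and *Pdk4*) held a CCAAT match, 1 a GTAAATA match and 1 a TATAAA match, while *Qrfp* held none. Neither nuclear receptor motif nor GTAAACA matched in any of the 6 windows. Over all 32851 promoters of this length, CCAAT was in 33.8%, GTAAATA in 2.73%, TATAAA in 12.4%, AGAACA in 16.1% and AGGTCA in 14.02%, with GTAAACA in 3.17%. The 6 windows therefore shared no motif of this set, which says only that these letters are not in these windows.

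The libraries were not alike in the number of members. Library 1 held 1327 members among 7171 *Epcam*+ cells (18.5%), library 2 held 1329 of 5064 (26.2%) and library 3 only 807 of 16815 (4.80%). Library 3 thus stands apart, and the counts of called genes over each comparison and many of the lists are also given without it. Members had a median of 14483, 16908 and 15876 UMIs in libraries 1, 2 and 3, against 12590, 18532 and 14262 in the other *Epcam*+ cells. Summed over cells, the members held 19918154, 22783130 and 13558247 UMIs. Of the members, 8.21, 6.25 and 5.82% resembled simulated doublets (others 6.21, 3.96 and 3.15%), and the libraries shared at most 1 member barcode in any pair.

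Each of the rule genes was higher in the members of every library, as the rule requires, and the plot of rule genes by library shows that library 3 had the lowest level of all 6. Levels are summed UMIs of a group per 1000000 UMIs of that group (CPM), given for libraries 1, 2 and 3 in that order here and below. *Akr1c14* (ENSMUSG00000033715, GRCm39 chr13:4099002-4141081, plus strand) was at 210.0, 159 and 44.0 CPM in members and 15.0, 9.29 and 2.82 CPM in the other *Epcam*+ cells, a ratio of 15.5 ± 1.55 (SD, n = 3). Its level differed between libraries in both groups, and the ratio within a library stayed between 13.96 and 17.1. *Qrfp* (ENSMUSG00000043102, GRCm39 chr2:31696178-31700592, minus strand) was at 70.8, 46.5 and 12.02 CPM against 3.64, 2.09 and 1.17, a ratio of 17.3 ± 6.26 (SD, n = 3), and *Cyp26b1* (ENSMUSG00000063415, GRCm39 chr6:84548396-84570890, minus strand) at 69.6, 84.4 and 30.2 CPM against 5.91, 8.81 and 4.46, a ratio of 9.38 ± 2.52 (SD, n = 3). For these 3 genes, and for *Depp1* and *Tll1* below, the groups did not overlap. As the rule reads these genes, this is a description, and how many of all genes had no overlap was not counted. *Depp1* (ENSMUSG00000048489, GRCm39 chr6:116627570-116629755, plus strand) was at 427, 601 and 212 CPM against 63.5, 112 and 50.4, a ratio of 5.44 ± 1.26 (SD, n = 3). *Tll1* (ENSMUSG00000053626, GRCm39 chr8:64466142-64659305, minus strand) was at 333, 249 and 191 CPM against 72.2, 40.8 and 36.8, a ratio of 5.30 ± 0.746 (SD, n = 3). *Pdk4* (ENSMUSG00000019577, GRCm39 chr6:5483097-5496339, minus strand) was at 176, 184 and 52.3 CPM against 43.0, 52.4 and 8.59, where the members of library 3 lay at the level of the other cells of library 2.

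**Figure D1:**
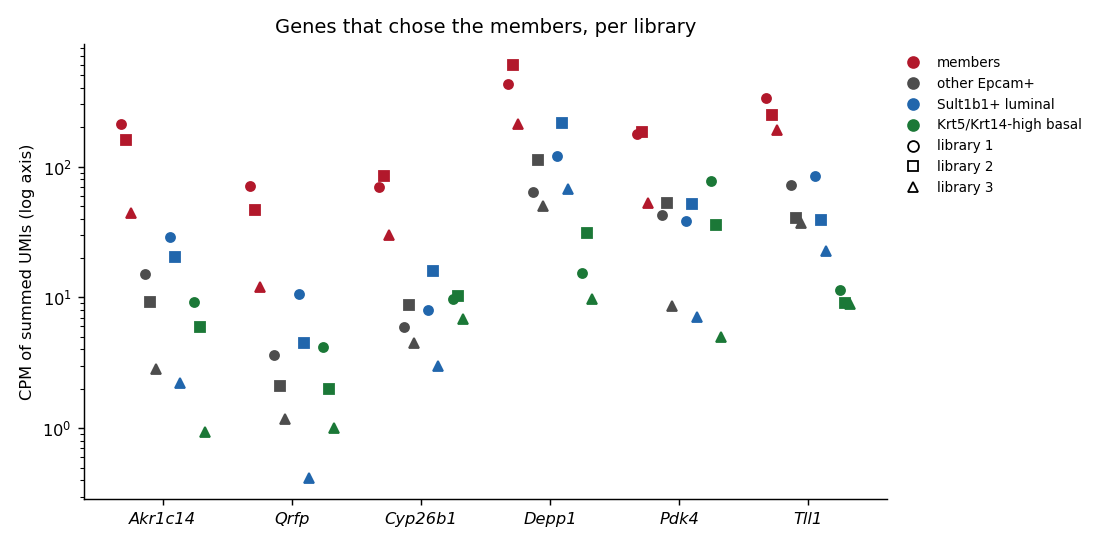
Level of each of the 6 rule genes (CPM of summed UMIs, log axis) in members, in other *Epcam*+ cells and in the *Sult1b1*+ luminal and *Krt5*/*Krt14*-high basal cells among them, 1 point per library. Members are above the other groups of the same library because the rule reads these genes, and the members of library 3 are the lowest of the 3 for each gene.

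A cell did not need all 6 genes. *Depp1* had at least 1 UMI in 89.4, 96.5 and 92.2% of members and *Akr1c14* in 74.2, 63.7 and 48.0%, while *Qrfp* was counted in 38.8, 35.8 and 14.3% and *Cyp26b1* in 40.3, 53.0 and 32.5%. *Tll1* was counted in 73.8, 67.6 and 81.9% of members and *Pdk4* in 71.1, 78.4 and 55.1%. *Depp1* was thus the most frequent gene of the rule and *Qrfp* the least frequent in all 3 libraries. Of the other *Epcam*+ cells, 29.7, 44.1 and 29.1% had *Depp1* and 2.55, 2.52 and 1.34% had *Qrfp*. In macrophages, which should lack these genes, *Akr1c14* was counted in 1.15, 0 and 3.03% of 87, 31 and 33 cells, at median depths of 12348, 4520 and 3544 UMIs. *Depp1* was counted in 6.90, 6.45 and 6.06% of these macrophages. *Qrfp* was counted in 0, 0 and 0% of the same cells, which allows shares of up to 3.45, 9.68 and 9.09% (3 counts of the cells, for counting error only). Cells with 5000 or more UMIs were also thinned to 5000 UMIs each, so that depth no longer differs, and cells below that were left out. This kept 1241, 1304 and 800 members and 4696, 3455 and 14109 other *Epcam*+ cells. After thinning, *Akr1c14* was in 51.6, 43.1 and 19.9% of members and 5.79, 3.44 and 1.51% of the other *Epcam*+ cells. *Depp1* was then in 66.6, 77.7 and 57.6% of members and 17.3, 25.7 and 16.6% of the others.

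The threshold of 3 genes cuts through a range. Among cells that met the rest of the rule, those just inside it, with exactly 3 of the 6 genes, numbered 624, 552 and 645, and those just outside it, with exactly 2, numbered 1137, 959 and 2033 cells. In library 3, only 27 members had 5 or 6 genes. *Gfra1*, which the rule does not read, was at 58.0, 33.0 and 54.2 CPM in cells with none of the 6 genes, 226, 119.6 and 250.3 CPM with 2 and 362, 258 and 339.6 CPM with 3. The plot of levels by number of rule genes shows that cells just outside the threshold already lay above those with none of the genes. Median depth also differed, from 8742, 13654 and 11642 UMIs with 0 genes to 14216, 17674 and 15723 with 3, and its part in the gradient of *Gfra1* was not tested.

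**Figure D2:**
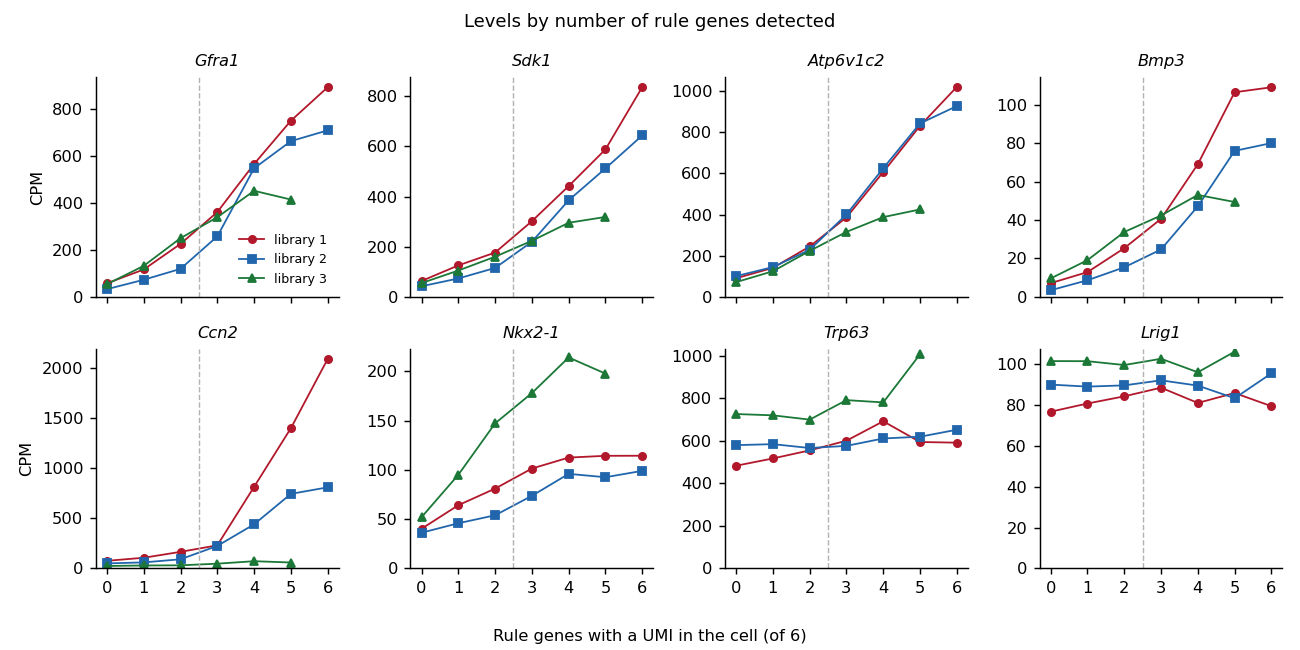
Levels (CPM of summed UMIs, linear axis from 0) of genes that the rule does not read, in *Epcam*+ cells that meet the rest of the rule, by how many of the 6 rule genes were detected (0 to 6), 1 line per library. Cells right of the dashed line, with 3 or more, are the members; *Gfra1* rises from 0 to 4 genes in each library and is lower again at 5 in library 3, whose 4 cells with all 6 are not drawn.

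The members were epithelial cells with both basal and airway transcription factors. *Trp63*, the basal cell factor, was at 623, 602 and 797 CPM in members and 528, 548 and 696 CPM in the other *Epcam*+ cells, and *Nkx2-1*, the factor of lung, trachea and thyroid, at 108, 86.1 and 185 against 55.8, 44.0 and 74.8. The log2 fold change of *Trp63* was 0.26 ± 0.06 SE, adjusted p = 0.0313, and that of *Nkx2-1* was 1.15 ± 0.07 SE, adjusted p = 0.000978. The call of *Trp63* was lost under 5 of 12 alternatives: without library 1, without library 2, without the block, with at least 2 of 6 genes and with the other cells matched on UMI count. That of *Nkx2-1* was lost without the block. Against *Krt5*/*Krt14*-high basal cells, at 964, 790 and 833 CPM, *Trp63* was lower in members (log2 fold change -0.39 ± 0.11 SE, adjusted p = 0.0213 in edgeR's test). This call was lost without the block, without library 1 and without library 2. Both genes together had a UMI in 61.7, 56.2 and 85.3% of members and in 24.0, 25.4 and 38.0% of the others, or 30.3, 26.3 and 48.9% and 14.1, 11.4 and 22.4% after thinning. The groups did not overlap on either count. The basal keratins *Krt5* and *Krt14* are capped by the rule: *Krt5* was at 447, 412 and 991 CPM in members against 890.4, 933 and 1728, and *Krt14* at 228, 277 and 195 against 629, 596 and 930.1. *Dcn*, a fibroblast proteoglycan that the rule reads only in mixtures, was at 547, 359 and 805 CPM in members against 709.7, 237 and 434, while *Col1a1* was at 5.77, 0.307 and 17.2 CPM in members.

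Members also lay near each other when the rule genes were left aside. Among the 15 nearest cells on 1000 variable genes without the rule genes, the mean share of members around a member was 60.6, 66.4 and 20.4%, against 13.5, 17.4 and 5.99% around another *Epcam*+ cell and 20.9, 27.4 and 5.37% of the cells placed. Members were thus a minority of a member's neighbours in library 3 and most of them in libraries 1 and 2. As these are genes of the same cells that gave the rule, the shares are a description.

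Against all other *Epcam*+ cells, members had more RNA of a growth factor receptor, of adhesion molecules, of a proton pump subunit and of a second aldo-keto reductase. UMI sums of members and of other cells were compared in edgeR's quasi-likelihood test, two-sided, with the library as a block and Benjamini-Hochberg adjustment over 17720 genes. Of these genes, 30.5% passed, with 12.5% (2208) higher and 18% (3191) lower in members at an adjusted p under 0.05. Without library 3 the counts were 3180 and 3949, and without library 2 they were 682 and 1763. Without the block 535 genes were higher and 803 lower. With so many genes called, a call says little by itself, and sizes are given beside each. Values in parentheses after a gene are log2 fold changes.

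*Gfra1* (ENSMUSG00000025089, GRCm39 chr19:58223212-58444346, minus strand), the receptor that binds the neurotrophic factor GDNF and passes it to RET, had the largest rise, at 535, 463 and 362 CPM in members and 109, 70.6 and 90.9 CPM in the others. Its log2 fold change was 2.41 ± 0.16 SE, adjusted p = 0.00101, and the lowest library of members lay above the highest of the others. *Ccn2*, a matricellular protein induced by YAP and TGF-beta, was at 765, 443 and 52.2 CPM against 105, 67.0 and 21.9 (log2 fold change 2.39 ± 0.35 SE, adjusted p = 0.00675). It was higher within each library, but library 3 had so little that its members lay below the other cells of libraries 1 and 2. *Bmp3*, a BMP family member that opposes BMP signalling, was at 66.2, 46.4 and 45.1 CPM against 13.3, 8.56 and 13.5 (log2 fold change 2.23 ± 0.17 SE, adjusted p = 0.00133). *Hif3a*, a hypoxia-inducible factor that is also induced by glucocorticoids, was at 22.8, 38.4 and 13.3 CPM against 7.12, 7.59 and 2.22 (log2 fold change 2.27 ± 0.18 SE, adjusted p = 0.00149). The groups of *Bmp3* and *Hif3a* did not overlap, but these genes were named for the size of their change. How many of all genes tested had no overlap was not counted.

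*Atp6v1c2*, an isoform of subunit C of the vacuolar proton pump, was at 583, 601 and 333 CPM against 141, 154 and 92.4 (log2 fold change 2.03 ± 0.08 SE, adjusted p = 0.00061). It had the smallest error of the 10 largest rises. The other named rises were the adhesion molecules *Sdk1* (2.15) and *Pcdh9* (2.02), the orphan nuclear receptor *Rorb* (2.29), the mannosyltransferase *Tmtc1* (1.98) and *Akr1c19* (2.23), all on the log2 scale. *Akr1c19* lies on chromosome 13 in the same gene cluster as *Akr1c14* and was at 16.1, 13.9 and 10.5 CPM in members against 4.15, 2.25 and 2.79. The genes of this cluster are close copies, so reads of one could be counted for another, and the value of *Akr1c19* is uncertain. *Rorb*, *Hif3a* and *Ccn2* lost their call without the block. Of these 10 genes, 8 were found in the RefSeq promoter table, and 6 of the 8 held CCAAT in at least 1 window, beside 33.8% of all promoters. *Rorb* also held GTAAATA, beside 2.73% of all promoters. *Rorb* and *Pcdh9* each had 2 windows, which gives them more chances of a match than a single promoter.

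The largest falls were those of genes with very few UMIs in members. *Scg2*, *Chga* and *Calca*, which mark neuroendocrine cells, were among the 10 largest falls. *Scg2* was at 41.2, 32.3 and 5.18 CPM in the other cells and had 4, 1 and 1 UMIs in the members of libraries 1, 2 and 3. Folds of such genes rest on a handful of UMIs. More UMIs stood behind the falls of *Lipf* and *Sbpl*. *Lipf*, a gastric lipase, was at 25.0, 5.09 and 20.1 CPM in members against 501, 548 and 353 (log2 fold change -4.87 ± 0.52 SE, adjusted p = 0.00304), and *Sbpl* at 13.7, 4.92 and 13.6 against 413, 286 and 375 (log2 fold change -5.08 ± 0.21 SE, adjusted p = 0.00061). The remaining falls were the granulocyte proteins *S100a8* and *S100a9*, the chemokine *Cxcl13* and the trefoil factor *Tff1*, with log2 fold changes between -5.84 and -6.67.

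By marker lists, members were set apart from squamous, goblet, glandular, ciliated and neuroendocrine cells, and were mixed for basal and club cells. Of 13 suprabasal squamous genes tested, 12 were lower and 0 higher (median log2 fold change -2.33, all genes tested -0.01). *Krt13* was at 43.6, 12.3 and 30.02 CPM against 535, 342 and 551 (log2 fold change -4.11 ± 0.24 SE, adjusted p = 0.000919). All 10 neuroendocrine genes, 8 of 9 ciliated genes, 7 of 9 goblet genes and 7 of 8 gland acinar genes were lower, with 0 higher in each list. Without library 3 the squamous, neuroendocrine, goblet and ciliated counts were the same, and 8 of 9 acinar genes were lower. Of 14 basal genes outside the rule, 3 were higher and 7 lower, with the same counts without library 3. The 3 were *Trp63*, *Pdpn* (0.79) and *Dlk2* (0.66), and among the 7 were the galectin *Lgals7* (-3.14) and the keratins *Krt17* (-1.85) and *Krt15* (-0.83). *Dapl1*, also in the basal list, had a log2 fold change of 0.10 ± 0.12 SE, adjusted p = 0.557.

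Of 13 club and secretory genes, 5 were higher and 3 lower, or 5 and 4 without library 3. The xenobiotic enzymes *Cyp2f2* (0.62 on the log2 scale) and *Aldh1a7* (1.00), and haptoglobin (*Hp*, 1.01), were higher, whereas the secreted *Bpifa1* was lower (-0.77). With at least 2 of the 6 genes as the rule, its log2 fold change was 0.55, the opposite direction, and with DESeq2 its call was lost. The calls of *Cyp2f2*, *Bpifa1* and the keratin *Krt15* were lost without library 2. The secretoglobin *Scgb3a2* did not pass, at 551, 374 and 680.0 CPM in members against 830.4, 419.5 and 488 (log2 fold change -0.02 ± 0.18 SE, adjusted p = 0.938). *Scgb1a1* did not pass either, at 88.3, 882 and 23.7 CPM against 722, 410.2 and 175 (log2 fold change -1.64 ± 0.95 SE, adjusted p = 0.24). With at least 2 of the 6 genes, the log2 fold changes of *Scgb3a2* and *Scgb1a1* were 0.68 and 0.72, so that their direction turned as well. In library 2, 9 members had 50 or more of its UMIs per 10000, against 1 and 0 members of libraries 1 and 3. *Scnn1a*, a subunit of the epithelial sodium channel, was at 338, 303 and 109.9 CPM against 98.2, 106 and 57.6 (log2 fold change 1.49 ± 0.18 SE, adjusted p = 0.00415).

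Markers of other cell types that a droplet could carry are given as sums over each list. The tuft genes were at 129, 99.9 and 88.9 CPM in sum in members against 101, 49.6 and 52.6, where *Ptgs1* was the 1 marker raised more than 2-fold in every library and *Il25* had 0 UMIs. The ionocyte genes summed to 604, 613 and 361 CPM against 179, 174 and 117, where *Atp6v1c2* alone was raised in this way and *Foxi1*, the factor that defines ionocytes, had 0 UMIs in all 3 libraries. The macrophage genes summed to 17.2, 2.15 and 0.738 CPM against 73.6, 24.5 and 9.48, with none at 0 in every library.

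Most of the FOXO targets and factors tested, and most of the glucocorticoid-induced genes, were higher in members. Of 22 FOXO genes tested, 15 were higher and 0 lower, beside 12.5% and 18% of all genes, with a median log2 fold change of 0.47. *Klf15*, a fasting-induced factor, was at 77.6, 81.6 and 30.2 CPM against 22.7, 25.6 and 14.5 (log2 fold change 1.59 ± 0.16 SE, adjusted p = 0.00268), and *Pik3ip1*, an inhibitor of PI3 kinase, at 158, 153 and 70.0 against 60.8, 66.2 and 42.0 (log2 fold change 1.19 ± 0.14 SE, adjusted p = 0.00416). The factors *Foxo1* (0.55) and *Foxo3* (0.51), and the insulin receptor *Insr* (0.54) and its substrate *Irs2* (0.68), were among the 15. *Foxo4* (0.07), *Sesn3* (0.11) and *Cdkn1b* (-0.03) did not pass. Without library 3, 16 of 23 were higher, without library 2, 11 of 22, and without the block only 3 of 22.

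Of 16 glucocorticoid genes tested, 10 were higher and 0 lower, with a median log2 fold change of 0.62. *Tsc22d3*, which encodes the glucocorticoid-induced leucine zipper, was at 535, 591 and 341 CPM against 179.9, 277 and 142 (log2 fold change 1.38 ± 0.11 SE, adjusted p = 0.00155), and *Zbtb16* at 155, 218 and 85.4 against 77.4, 97.8 and 38.4 (log2 fold change 1.18 ± 0.06 SE, adjusted p = 0.000684). The chaperone *Fkbp5* (0.81) and the clock gene *Per1* (0.82) were higher as well, while *Sgk1* (0.01), *Dusp1* (0.22) and the metallothioneins *Mt1* (-0.09) and *Mt2* (-0.25) did not pass. Without library 3, 12 of 16 were higher, without library 2, 5, and without the block 0 at the adjusted threshold in edgeR's test. *Depp1* and *Pdk4*, which helped choose the members and are in neither list, are known targets of the same factors, so the lists are not independent of that choice. The plot of gene lists sets both beside the other pathways.

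**Figure D3:**
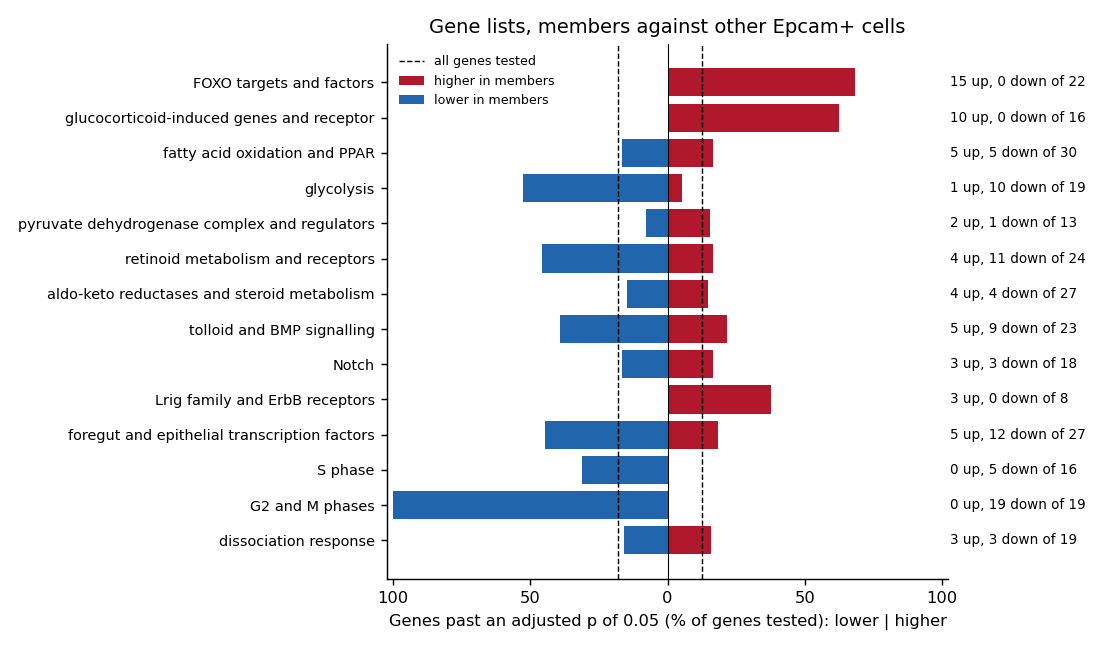
Share of the tested genes of each list that were higher (right) or lower (left) in members than in other *Epcam*+ cells at an adjusted p under 0.05, with the counts at the right edge. The dashed lines give the share of all 17720 genes tested, 12.5% higher and 18% lower; the FOXO and glucocorticoid lists reach furthest to the right and the G2 and M phases furthest to the left.

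Around *Pdk4*, which sets how cells use glucose, glycolysis genes had more falls than rises, while fatty acid oxidation lay near the 12.5% higher and 18% lower of all genes tested and few genes of the pyruvate dehydrogenase complex passed. Of 19 glycolysis genes, 1 was higher and 10 lower (median log2 fold change -0.41). *Tpi1* was at 68.1, 68.7 and 103.3 CPM against 122, 124 and 144 (log2 fold change -0.65 ± 0.07 SE, adjusted p = 0.00352). The lactate exporter *Slc16a3* had the largest fall of the list (-2.09 on the log2 scale). It was at only 1.61, 0.48 and 0.22 CPM in members, so its fold rests on few UMIs. The glucose transporter *Slc2a1* was the 1 gene higher (0.42), a call lost without library 2. Without library 3, 2 were higher and 11 lower, and without the block 2 of the 19 were lower. Of 30 genes of fatty acid oxidation and PPAR factors, 5 were higher and 5 lower, or 8 and 6 without library 3. Among the higher were *Ppara* (0.53) and the thioesterase *Acot1* (1.29). Among the lower were the fatty acid binding proteins *Fabp5* (-1.59) and *Fabp4* (-1.97), the latter at 8.13, 0.132 and 0.295 CPM in members. Of 13 genes of the pyruvate dehydrogenase complex and its regulators, 2 were higher (*Pdk1*, 0.54, and *Pdpr*, 0.28) and 1 lower (*Dlat*, -0.19), or 4 and 1 without library 3.

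The retinoid genes moved in both directions. Of 24 tested, 4 were higher and 11 lower in members, or 5 and 12 of 23 without library 3. The rises are near the 12.5% of all genes tested that were higher, and the falls stand beside 18%. Higher were *Adh1*, which oxidises retinol, at 243, 292 and 121 CPM against 101, 170.4 and 68.2 (log2 fold change 1.03 ± 0.12 SE, adjusted p = 0.00371), the carrier *Rbp4* (1.04), the receptor *Rarb* (0.82) and the retinaldehyde reductase *Dhrs3* (0.62). *Rarb* and *Dhrs3* are known to be induced by retinoic acid itself. Among the 11 were the retinoic acid-forming dehydrogenases *Aldh1a2* (-3.89), *Aldh1a3* (-2.19) and *Aldh1a1* (-0.27), and *Dhrs9* (-2.01). *Aldh1a3* was at only 0.85, 0.18 and 0.81 CPM in members, so its fold rests on few UMIs. *Aldh1a1* was at 394, 212 and 179 CPM in members against 479, 296 and 214, and it was higher in members than in *Krt5*/*Krt14*-high basal cells, at 79.6, 70.4 and 94.4 CPM (log2 fold change 1.57 ± 0.24 SE, adjusted p = 0.00172).

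Of 27 aldo-keto reductases and steroid genes, 4 were higher and 4 lower, near the 12.5% and 18% of all genes tested, or 4 and 9 without library 3. Higher were *Akr1c19*, *Akr1c13* (0.63), the steroid 5-alpha-reductase *Srd5a2* (1.40), whose products *Akr1c14* reduces, and the mineralocorticoid receptor *Nr3c2* (0.43). *Srd5a2* was at only 1.1, 1.2 and 0.52 CPM in members, so its fold rests on few UMIs. Lower were *Akr1c18* (-1.86), *Akr1b7* (-2.15), *Hsd17b4* (-0.43) and *Hsd17b2* (-3.81), the last at only 0.55, 0.13 and 0 CPM in members. Reads of 1 Akr1c gene could be counted for another, which was not tested, so the values of the Akr1c genes are uncertain. Of the RFamide peptides and receptors around *Qrfp*, only *Npff* and *Kiss1r* had enough counts to be tested, and neither passed.

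Around the protease *Tll1*, 5 of 23 tolloid and BMP genes were higher and 9 lower, or 8 and 10 of 24 without library 3. Both this list and the ErbB list below stand beside 12.5% higher and 18% lower of all genes tested. The ligand *Bmp5* was at 47.9, 28.0 and 53.7 CPM against 21.1, 8.26 and 17.1 (log2 fold change 1.59 ± 0.12 SE, adjusted p = 0.00136), and the receptors *Bmpr1a* (0.36) and *Bmpr1b* (0.42), the inhibitory *Smad7* (0.60) and the decoy receptor *Bambi* (0.77) were higher too. The ligands *Bmp2* (-2.12), *Bmp4* (-0.45) and *Bmp6* (-1.35) and the BMP-induced factors *Id1*, *Id2* (-0.99) and *Id3* (-1.07) were lower. In the ErbB family, which LRIG1 restrains, *Erbb4* was at 69.3, 51.6 and 52.4 CPM against 45.4, 19.2 and 19.8 (log2 fold change 1.21 ± 0.16 SE, adjusted p = 0.00533), and *Egfr* (0.24) and the feedback inhibitor *Errfi1* (1.09) were also higher, 3 of 8 tested, or 5 of 8 without library 3. The call of *Egfr* was lost under 6 of 12 alternatives, depth matching, thinning and leaving out library 1 or 2 among them, and that of *Errfi1* without library 2. Without the block, the calls of *Bmp5*, *Erbb4* and *Errfi1* were lost as well. *Lrig1* itself did not pass, at 85.3, 90.0 and 102.1 CPM against 77.9, 89.1 and 91.9 (log2 fold change 0.17 ± 0.06 SE, adjusted p = 0.0694).

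Genes of the G2 and M phases were low in members, while most S phase genes did not pass. All 19 genes of the G2 and M phases were lower in members, with a median log2 fold change of -3.32, and this count was the same without any 1 library. *Mki67* was at 1.61, 0.307 and 2.21 CPM against 21.3, 9.64 and 37.9 (log2 fold change -4.04 ± 0.21 SE, adjusted p = 0.000818). At least 5 of the 19 genes were detected in 1, 0 and 1 members of the 3 libraries, against 98, 31 and 575 other *Epcam*+ cells, or 1.68, 0.83 and 3.59%. Of 16 S phase genes, 5 were lower and 0 higher, beside 18% and 12.5% of all genes tested, or 3 and 1 without library 3. *Pcna*, the replication clamp, did not pass, at 37.9, 41.0 and 36.2 CPM against 36.7, 42.5 and 50.1. When the other cells were drawn to match the members on UMI count, 14 of 18 G2 and M genes tested were lower.

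Within the members, a minority carried programs of other types. At least 4 of 9 ciliated markers were detected in 2.49, 1.13 and 0.991% of members against 7.55, 7.04 and 3.97% of the others. *Krt13* at 20 or more UMIs per 10000 was found in 3, 1 and 1 members against 314, 142 and 723 other cells. These members, like the doublet-like barcodes, were kept in all comparisons, and with doublet-like barcodes removed 2273 genes were higher and 3254 lower than in the other cells.

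The luminal comparison group were *Epcam*+ cells with *Sult1b1*, a sulfotransferase, of which there were 513, 477 and 1532. These cells also count among the other *Epcam*+ cells above, and all 3 comparisons share the same members. Of 15139 genes tested, 38.5% passed, 17.3% (2620) higher and 21.2% (3209) lower in members. Without library 3 these were 2902 and 3250, and without library 2 they were 1500 and 2136. *Gfra1* was at 64.3, 55.6 and 36.9 CPM in the luminal cells (log2 fold change 3.10 ± 0.07 SE, adjusted p = 4.93e-06), and the collagens *Col4a3* and *Col8a1* were higher in members as well. *Col8a1* was at 37.9, 37.1 and 72.2 CPM against 5.31, 3.48 and 8.17 (log2 fold change 3.08 ± 0.12 SE, adjusted p = 1.71e-05), and *Tmem108* at 54.8, 40.9 and 51.7 against 8.29, 4.75 and 4.98 (log2 fold change 3.04 ± 0.13 SE, adjusted p = 2.05e-05). The groups of *Gfra1*, *Col8a1* and *Tmem108*, which were named for the size of their change, did not overlap. How many of all genes tested had no overlap was not counted.

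The luminal cells instead had the mucin *Muc5ac*, its companion *Tff1* and the sialyltransferase *St6galnac1*, which glycosylates mucins. *Muc5ac* was at 0.1, 0.0439 and 0.221 CPM in members against 5.22, 10.1 and 18.2 (log2 fold change -6.54 ± 0.32 SE, adjusted p = 3.16e-05). The carboxylesterase *Ces1h* was at 2.61, 0.658 and 2.80 CPM against 124, 71.9 and 158 (log2 fold change -5.96 ± 0.17 SE, adjusted p = 8.49e-06), and *Cybb*, a phagocyte oxidase subunit, at 0.552, 0.263 and 0.0738 against 17.1, 15.5 and 10.2 (log2 fold change -5.56 ± 0.30 SE, adjusted p = 4.32e-05). The folds of *Muc5ac* and *Cybb* rest on few UMIs in members. Of 13 club genes, 1 was higher and 6 lower in members, and of 11 suprabasal squamous genes, 11 were lower. Without library 3 these counts were 1 and 7, and 9 of 11. Among other marker lists, ciliated genes gave 0 higher and 8 lower of 9, gland duct genes 1 and 7 of 9, and goblet genes 0 and 5 of 8. Gland acinar genes gave 0 and 2 of 5, ionocyte genes 2 and 2 of 5, and muscle satellite genes 2 and 0 of 3. The 1 neuroendocrine gene tested did not pass. For these other marker lists, counts without library 3 are not given. The FOXO list gave 15 higher and 1 lower of 22, the glucocorticoid list 9 and 1 of 16, and glycolysis 2 and 12 of 18. Without library 3 they gave 14 and 1, 10 and 1, and 2 and 11. The largest rise by fold was *Tg*, thyroglobulin, at 31.5, 7.86 and 25.5 CPM against 2.79, 2.97 and 0.734 (log2 fold change 3.39 ± 0.56 SE, adjusted p = 0.00374), a call lost with at least 4 of the 6 genes. The thyroid list summed to 57.1, 38.4 and 51.8 CPM in members, 68.8, 75.0 and 96.0 in luminal cells and 427, 419 and 118 in all other *Epcam*+ cells. Whether *Tg* came from free RNA of thyroid cells was not tested.

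Against basal cells with 40 or more UMIs of *Krt5* and *Krt14* per 10000 (538, 251 and 2728 cells), the members had more RNA of club and secretory genes. Of 14839 genes, 50.1% passed, 24.8% (3676) higher and 25.3% (3758) lower, or 3445 and 3334 without library 3. Of 13 club and secretory genes, 12 were higher and 0 lower (median log2 fold change 2.65), the same counts as without library 3. *Hp* was at 15.2, 12.1 and 8.63 CPM against 0.113, 0.18 and 0.281 (log2 fold change 5.38 ± 0.36 SE, adjusted p = 5.84e-05), and *Sult1d1*, a sulfotransferase, at 789, 572 and 486 against 16.9, 3.24 and 21.6 (log2 fold change 5.37 ± 0.43 SE, adjusted p = 0.000124). *Kcnip4*, a modulator of potassium channels, was at 108, 117 and 77.0 CPM against 2.25, 1.98 and 1.28 (log2 fold change 5.78 ± 0.11 SE, adjusted p = 1.72e-06), and the WNT agonist *Rspo3* at 19.6, 15.1 and 17.6 against 0, 0 and 0.703. None of these 4 genes overlapped between the groups, but they were named for the size of their change. The share of all genes tested without overlap was not counted. The levels of *Hp* and *Rspo3* in basal cells rest on few UMIs.

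*Krt6a*, a keratin of activated squamous cells, was at 11.3, 6.72 and 10.9 CPM in members against 648, 329.7 and 714 in basal cells (log2 fold change -5.86 ± 0.12 SE, adjusted p = 1.72e-06). *Krtdap* (-6.88), *Krt16* (-6.13), *Cenpf* (-6.15) and *Calcb* (-6.75) had the other large falls. These 4 genes were at no more than 2.065 CPM in any library of members, so their folds rest on few UMIs. All 19 G2 and M genes and all 16 S phase genes were lower in members, or 19 and 13 without library 3. Of 14 basal genes, 10 were lower and 1 higher, or 11 and 1 without library 3. As the groups were split by *Krt5* and *Krt14*, basal genes themselves, this count is a description. The FOXO list gave 13 higher and 2 lower of 22, and the glucocorticoid list 10 and 3 of 16, or 15 and 1, and 11 and 1, without library 3. Markers of other cell types moved as well. Goblet genes gave 2 higher and 1 lower of 7, and gland acinar genes 2 and 0 of 5, with no counts given without library 3. Of 8 ciliated genes, 6 were higher and 1, *Tppp3*, lower (median log2 fold change 1.96, list sums 221, 83.7 and 57.2 against 182, 165 and 263 CPM), or 7 and 1 without library 3, with *Foxj1*, the factor that drives ciliation, at 35.3, 8.21 and 4.35 CPM against 0.788, 0.721 and 1.49. All 4 ionocyte genes tested were higher, with and without library 3 (list sums 604, 613 and 361 against 59.4, 76.4 and 29.1 CPM, most of it *Atp6v1c2* in members). Of 6 fibroblast genes, 4 were higher and 1, *Fbln1*, lower, or 2 and 1 of 5 without library 3. The 4 were at low levels, with *Col3a1* at 7.43, 0.966 and 25.4 CPM against 2.37, 1.08 and 10.1, and *Fbln1* was at 21.6, 19.7 and 31.1 against 63.1, 63.2 and 97.6. All 3 muscle satellite genes tested were higher (list sums 12.4, 12.8 and 24.8 against 2.93, 1.44 and 5.26 CPM), or 2 without library 3. The part of these markers in the comparison with basal cells was not tested. In the plot of the 3 comparisons the named genes are set side by side.

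**Figure D4:**
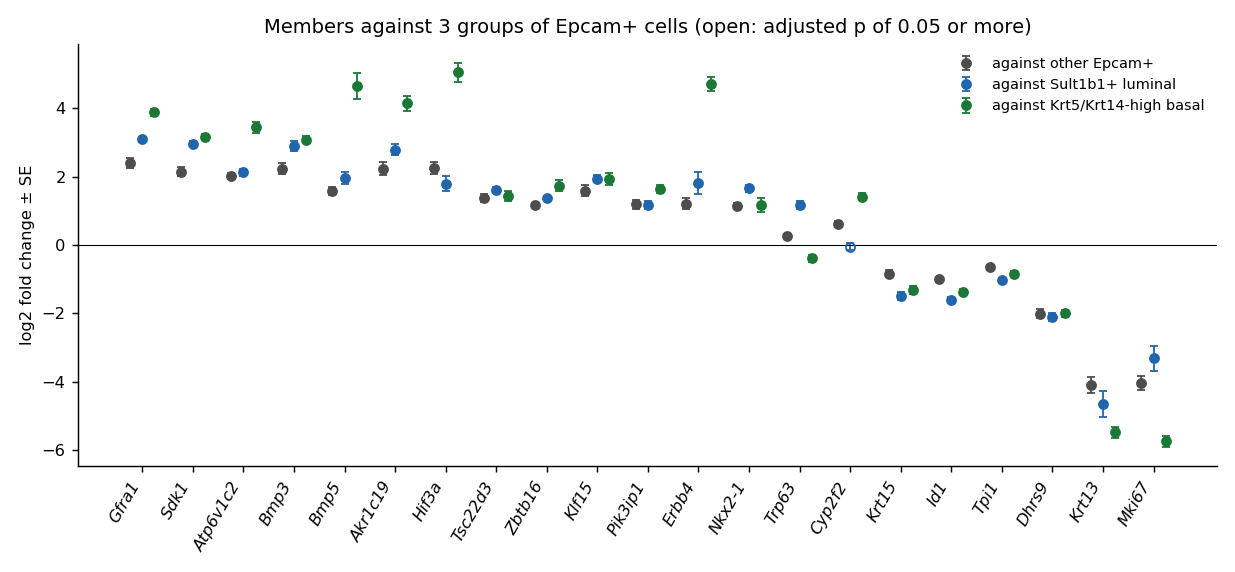
Log2 fold change of the named genes in members against all other *Epcam*+ cells, against *Sult1b1*+ luminal cells and against *Krt5*/*Krt14*-high basal cells (points with standard errors, positive is higher in members, open points have an adjusted p of 0.05 or more). The comparisons share the members; *Gfra1* lies above 0 in all 3.

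*Lrig1*, the gene that drives the label, had a UMI in 61.1%, 68.0% and 72.9% of members and in 49.7%, 65.1% and 59.1% of the other *Epcam*+ cells. The share was higher in members in 3 of 3 libraries, by a mean of 9.39 percentage points, and 3 pairs cannot go below p = 0.25 in an exact paired test. With at least 2 *Lrig1* UMIs required, the shares were 33.2, 40.6 and 44.2% against 26.2, 40.6 and 33.4%, so that in library 2 the gap was 0.07 percentage points. With each cell of 5000 or more UMIs thinned to 5000, the shares were 33.4%, 36.1% and 38.8% against 28.7%, 32.2% and 34.1%. In macrophages 1.15%, 3.23% and 12.1% of cells had a *Lrig1* UMI. Against luminal cells *Lrig1* was lower in members (log2 fold change -0.22 ± 0.06 SE, adjusted p = 0.028, a call lost under 7 of 12 alternatives), and against basal cells it was higher (log2 fold change 0.98 ± 0.07 SE, adjusted p = 0.000105), with 97.1, 109 and 108 CPM in luminal, 85.3, 90.0 and 102.1 in members and 39.5, 47.4 and 51.7 in basal cells. Of these 3 groups, its level was thus highest in luminal and lowest in *Krt5*/*Krt14*-high basal cells of each library, and luminal cells and members overlapped across libraries. That basal group leaves out basal cells under the keratin limit. Its suprabasal squamous genes summed to 4104, 2615 and 3715 CPM, against 321, 286 and 415 in members, so its *Lrig1* level does not stand for all basal cells. The plot of *Lrig1*+ shares shows that the intervals of the groups overlap in library 2, with all UMIs and after thinning.

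**Figure D5:**
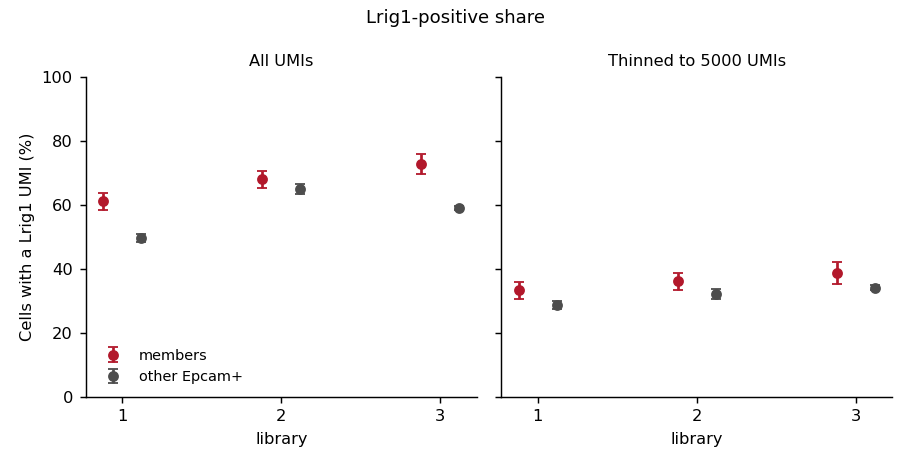
Share of cells with at least 1 *Lrig1* UMI (%) in members and other *Epcam*+ cells by library, with exact 95% binomial intervals, for all UMIs (left) and after thinning each cell of 5000 or more UMIs to 5000 (right). Members are above the others in each library; the gap is smallest in library 2 with all UMIs.

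Members with a *Lrig1* UMI (*Lrig1*+) were also compared with members without one (*Lrig1*-). Of 13802 genes, 0.029% (4) passed, 3 of them higher (0.0217%) and 1 lower (0.00725%) in *Lrig1*+ members. *Apod*, a lipocalin that binds lipids, was at 29.4, 3.36 and 22.1 CPM in *Lrig1*+ members and 12.5, 0.934 and 9.12 CPM in *Lrig1*- members (log2 fold change 1.29 ± 0.15 SE, adjusted p = 0.0424). *Grm8*, a glutamate receptor, was at 17.4, 31.2 and 25.0 CPM against 8.84, 17.0 and 14.8 (log2 fold change 0.85 ± 0.11 SE, adjusted p = 0.0424). *Atp6v0a4*, a proton pump subunit below the level set for naming and named after its value was seen, was at 6.74, 7.64 and 5.88 CPM against 1.52, 2.02 and 1.57 (log2 fold change 1.96 ± 0.24 SE, adjusted p = 0.0424). *Akr1c14* was lower in *Lrig1*+ members, at 192, 149 and 41.8 CPM against 247, 183 and 51.2, in 3 of 3 libraries. It is the 1 gene counted as lower, and since the rule reads it, its values are a description. These calls are near the threshold: without library 2, 71 genes passed, and without library 3 or without the block 0 did in edgeR's test, with 803 and 76 at an unadjusted p under 0.05. *Apod* lost its call under 5 of 9 alternatives (DESeq2, doublet-like barcodes removed, without the block, without library 1 and without library 3), and *Grm8* under these and after thinning. DESeq2 called 0 genes higher and 2 lower, and *Akr1c14* was not among the 2.

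Whether the *Lrig1* contrast differed between members and other *Epcam*+ cells was tested as an interaction over 16614 genes. In edgeR's quasi-likelihood test 0 genes passed (0%), with 992 at an unadjusted p under 0.05 and a smallest adjusted p of 0.337. DESeq2 called 16 higher and 16 lower.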

How the data were processed

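The authors aligned single-cell 3′ reads to mouse build mm39 (GRCm39) with Cell Ranger 8.0.1 and deposited raw UMI counts for 33696 features and every barcode called as a cell. Quality limits were 500 to 8000 detected genes, 1000 to 40000 UMIs and no more than 8% of UMIs from mitochondrial genes. Members and gene lists were chosen with earlier results of these data known. For each group of cells, the UMIs of a library were added up, and edgeR 4.0.16 under R 4.3.3 compared the sums (TMM, filterByExpr, glmQLFit, glmQLFTest, Benjamini-Hochberg, adjusted p under 0.05), with the library as block because 1 pool of larynges gave both of its sums. Deviations of the 2 sums of a library from their group means correlated by 0.569, 0.639 and 0.636 for members and other *Epcam*+ cells, 0.659, 0.654 and 0.733 with luminal cells, 0.271, 0.379 and 0.488 with basal cells, and 0.696, 0.700 and 0.851 for the *Lrig1* contrast. The 18 rule genes were left out of the tests against other cells, and *Lrig1* out of those that split by it; within members the rule genes stayed in the fit, and the 1 that passed is given as a description. Named genes are the 10 (5 in further tests) largest rises and falls among called genes that average 10 CPM or more in the higher group and the same direction in 3 libraries, list members, and genes the study names for this experiment; predicted genes were not named. DESeq2 1.42.0, doublet-like barcodes at 0.4% per 1000 barcodes, and thinning to 5000 UMIs, with cells below that left out, served as alternatives. Intervals cover counting error only. The scripts were tested on simulated data.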

Additional observations from a re-analysis of the deposited data

Results flagged for a closer look

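Barcodes outside the quality limits were not used in any comparison, and some of them met the rest of the member rule: 66 of 1262 *Epcam*+ barcodes in library 1, 122 of 1715 in library 2 and 22 of 1903 in library 3 (5.23%, 7.11% and 1.16%). As among the cells within the limits, library 3 had the smallest share. No library of the series lacks the reporter, so no control level can be set beside these counts.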

How the results depend on the processing

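Against all other *Epcam*+ cells, 5399 genes passed; without the replicate block 1338 did, and without each library in turn between 2445 and 7129, where the lowest count was without library 2 (27.9% of the calls higher, against 40.9%). Against luminal cells the count of 5829 fell to 2439 without the block and lay between 3636 and 6152 without 1 library, again lowest without library 2. Against basal cells it stayed within 1.5 times of 7434 under every alternative. The count of 4 genes in the *Lrig1* contrast within members became 2 with DESeq2, neither of them among the 4, 178 with no filter on low counts, 0 without the block, 0 with doublet-like barcodes removed, 23 after thinning and 0 to 71 without 1 library. For the difference of that contrast the count of 0 became 32 with DESeq2, 6 with no filter, 1 without doublet-like barcodes, 2 after thinning and 0 to 1 without 1 library. With at least 2 of the 6 genes, members made up 34.4%, 45.2% and 16.9% of the *Epcam*+ cells, with at least 4 of them 9.80%, 15.3% and 0.963%, and without the quality limits 16.5%, 21.4% and 4.43%. With at least 2 of 6, the log2 fold changes of 3 secretory genes turned positive: *Scgb3a2* (0.68), *Scgb1a1* (0.72) and *Bpifa1* (0.55). A set of genes was followed through the alternatives, which is not the same as all genes given above. No other gene of the set changed direction where it was called in either fit. Changes of sign in genes called in neither fit were not counted. Of the 79 genes followed in the comparison with all other *Epcam*+ cells, 30 lost their call without the block and 8 without library 2. By the same count, 78 were unchanged with DESeq2 and 79 with other size factors or doublet-like barcodes removed. The fall of *Lrig1* against luminal cells was lost under 7 of 12 alternatives. The cause of these changes was not tested. With 807 members, library 3 gave the fewest UMIs.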

Other observations

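Of 18 Notch genes tested against all other *Epcam*+ cells, 3 were higher (*Dll1*, *Jag2* and *Maml2*) and 3 lower (*Dll3*, *Notch3* and *Nrarp*), near the 12.5% and 18% of all genes tested, at an adjusted p under 0.05 in edgeR's quasi-likelihood test, or 4 and 7 of 20 without library 3. The receptor *Notch1* was at 79.98, 77.9 and 93.7 CPM in members and 79.2, 76.7 and 87.8 CPM in the others, with a log2 fold change of 0.11 ± 0.05 SE, adjusted p = 0.145, and *Hes1*, a target of the pathway, had 0.09 ± 0.08 SE, adjusted p = 0.404. Of 27 foregut and epithelial transcription factors, 5 were higher, among them *Foxa1* (0.27), *Hoxa5* (0.55) and *Isl1* (0.33) beside *Nkx2-1* and *Trp63*. Lower were 12, among them *Foxa2* (-2.11), *Grhl3* (-2.40) and *Pitx1* (-1.03), while *Sox2* did not pass (-0.02). Without library 3, 4 were higher and 15 lower.

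Genes that rise when tissue is dissociated gave 3 higher and 3 lower of 19 against the other *Epcam*+ cells, or 2 and 3 without library 3. This is near the 12.5% higher and 18% lower of all genes tested. *Fos* (0.03), *Jun* (-0.43) and *Egr1* (-0.43) did not pass, and *Zfp36* (0.44), *Socs3* (0.50) and *Btg2* (0.37) were higher. Of the other lists, gland duct genes gave 1 higher and 6 lower of 10, myoepithelial 0 and 5 of 6, tuft 1 and 2 of 7, ionocyte 1 and 4 of 8, thyroid and parathyroid 0 and 5 of 8, taste bud 0 and 2 of 5, fibroblast 0 and 6 of 6, endothelial 0 and 5 of 6, macrophage 0 and 6 of 6, muscle satellite 0 and 4 of 5, and Schwann 0 and 2 of 6. These lists stand beside the same 12.5% and 18% of all genes tested. Without library 3, the lists of these that differed were gland duct (2 and 7 of 10), tuft (2 and 3 of 9), ionocyte (1 and 5 of 8), thyroid and parathyroid (0 and 9 of 10), taste bud (0 and 4 of 6) and Schwann (0 and 4 of 6).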
